A study of Arabidopsis thaliana with 6 samples.

Results

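Transcripts of 4 genes tied to iron storage were followed in *Arabidopsis thaliana*, and the arrays measured neither iron nor protein. The genes were the ferritin genes FER1 (AT5G01600), FER3 (AT3G56090) and FER4 (AT2G40300), and AT3G25190. The authors' deposited table describes AT3G25190 as a putative nodulin, and RefSeq lists it as Vacuolar Iron Transporter-Like 5. All 4 are called storage genes here, as a label only. They were picked by locus from the authors' deposited table of 274 probe sets that differed between genotypes, out of 22746 probe sets on the array. Each locus had 1 probe set in that table, and none of these 4 probe sets was of a kind shared between transcripts. The study compared whole Col-0 seedlings aged 15 days with seedlings of the same age of the mutant gapcp1gapcp2, which is named for GAPCP1 and GAPCP2, the genes of the plastidial glycolytic glyceraldehyde-3-phosphate dehydrogenase. All plants grew vertically on dilute Murashige and Skoog medium with vitamins, in days of 16 hours of light, at 22 °C, and no chemical treatment is named. There were 3 one-colour Affymetrix arrays of biological replicates for each genotype. The labels do not give the mutant's alleles.

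Ferritins are iron storage proteins whose subunits form a hollow shell that holds iron in a mineral form. In plants they lie mainly in plastids, where they keep iron from taking part in reactions that make reactive oxygen species. In Arabidopsis the FER1 transcript is known to accumulate when iron is plentiful and to be low when iron is scarce, and FER2 is known mainly from seeds. VIT1 loads iron into the vacuole, and the VTL genes, AT3G25190 among them, are named for their likeness to it.

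The transcripts of all 4 genes were less abundant in gapcp1gapcp2 than in wild type. AT3G25190 was lower by 4.82-fold, FER1 by 3.61-fold, FER4 by 2.56-fold and FER3 by 2.33-fold, as ratios of mean intensity (n = 3 arrays each). For each of the 4, every mutant array lay below every wild-type array, as it did for 16.6% of all 22746 probe sets. All 4 also passed a two-sided limma test across all probe sets (Benjamini-Hochberg adjusted p under 0.05), which 5.13% of probe sets passed with a lower level in the mutant. Since the authors' deposited table that supplied the genes had been filtered on this same contrast, these counts follow from the choice of genes, and the values below are descriptive.

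That filter kept probe sets with a fold change over 2, a difference of means over 100 and a p of at most 0.05. In the authors' deposited table the smallest fold of a probe set lower in the mutant was 2.02. Outside that table, and with a difference over 100 on the arrays used here, the nearest fold under the threshold was 1.99. Being taken as the nearest under the threshold, this value does not show how sharp the filter was. By fold the 4 genes lay further inside, the closest being FER3 with a fold of 2.32 in the authors' deposited table. By the lower bound of the fold in that table, FER4 was the closest, at 2.07 against 2.12 for FER3.

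FER1 encodes the ferritin best known for its response to iron in leaves. The wild-type arrays, replicates 1 to 3, gave intensities of 2950, 3364 and 3022, and the mutant arrays gave 728, 954 and 906 in the same order. The groups were far apart, with 1995 intensity units between the lowest wild-type and the highest mutant array. The mean went from 3112 ± 221 in wild type to 863 ± 119 in the mutant (SD, n = 3 each), so that 27.7% of the wild-type intensity was left. On the log2(intensity + 16) scale the change was -1.84 ± 0.12 (SE). Over single pairs of a wild-type and a mutant array, the fold ranged from 3.09 to 4.62.

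FER3, a ferritin gene of the same family, gave 1197, 1327 and 1266 in the wild-type replicates and 522, 537 and 569 in the mutant replicates. Its arrays were tightly grouped within each genotype, and the genotypes were 628 units apart at their nearest. The mean was 1264 ± 65.1 in wild type and 543 ± 24.3 in gapcp1gapcp2 (SD, n = 3 each), which is 42.9% of the wild-type intensity. The log2 change was -1.20 ± 0.07 (SE), the smallest of the 4 genes.

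FER4, whose ferritin is known from mitochondria as well as plastids, gave 630, 777 and 676 in the wild-type replicates and 227, 280 and 305 in the mutant replicates. The groups did not overlap, but the arrays of each genotype were more spread than those of FER3. The mean was 694 ± 75.0 in wild type and 271 ± 39.6 in gapcp1gapcp2 (SD, n = 3 each), with 39.0% of the intensity left. The log2 change was -1.31 ± 0.13 (SE), and the fold over single pairs of arrays ranged from 2.07 to 3.42.

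AT3G25190 was the gene of the set with the largest log2 change. Its intensity was 918, 932 and 851 in the wild-type replicates and 177, 183 and 201 in the mutant replicates. The mutant arrays differed little from each other and lay 651 units below the lowest wild-type array. The mean went from 901 ± 43.2 to 187 ± 12.2 (SD, n = 3 each), with 20.8% of the wild-type intensity left and a log2 change of -2.18 ± 0.08 (SE). This size depends somewhat on the constant added before taking logs, as the mutant level is the lowest of the 4 (-2.26 with 1 and -1.94 with 64 in place of 16).

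**Figure D1:**
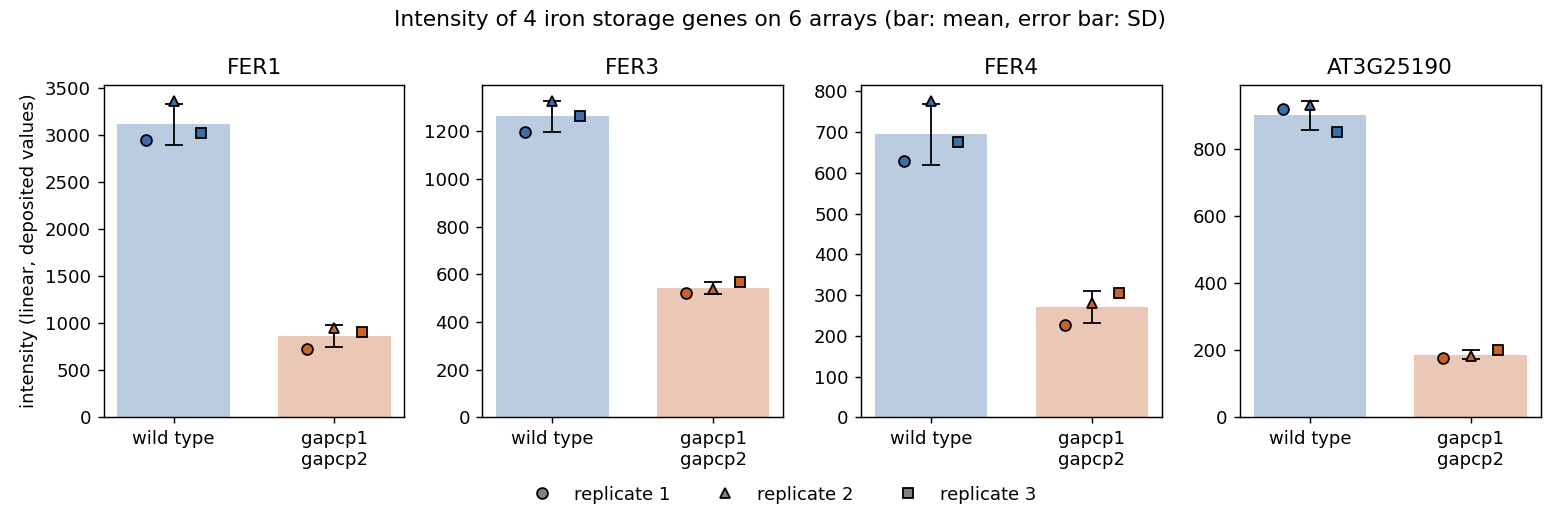
Intensity (linear, deposited values) of FER1, FER3, FER4 and AT3G25190 in wild type (blue) and gapcp1gapcp2 (orange), with each gene on its own vertical axis from 0. Points are the 3 replicate arrays, bars the group mean and error bars the SD; no mutant array reaches a wild-type array, and for FER1 the groups are 1995 units apart.

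The authors' deposited table gives nearly the same values for these genes. Its fold sizes were 3.62 for FER1 (bounds 3.07 to 4.32), 2.32 for FER3 (2.12 to 2.54), 2.55 for FER4 (2.07 to 3.15) and 4.79 for AT3G25190 (4.29 to 5.36), all lower in the mutant. In the authors' deposited table as a whole, the mean of at least 1 genotype fell outside the values of these 6 arrays for 50 of 274 probe sets, and for 0 of the 4 storage genes.

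Ranked by log2 change from the lowest of 22746 probe sets, AT3G25190 was at position 8, FER1 at 21, FER4 at 81 and FER3 at 113. A log2 change of -1 or lower was reached by 0.765% of all probe sets, and by all 4 genes. The median log2 change was -1.58 for the 4 genes and -0.015 for all probe sets. These comparisons with all probe sets largely follow from the choice of genes, as the authors' deposited table required a fold over 2 on this contrast. Names are limited here to the 256 probe sets of 1 locus in the authors' deposited table, of which 99 were lower in the mutant. Among these 256, AT3G25190 was the 5th lowest, FER1 the 15th, FER4 the 52nd and FER3 the 71st.

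**Figure D2:**
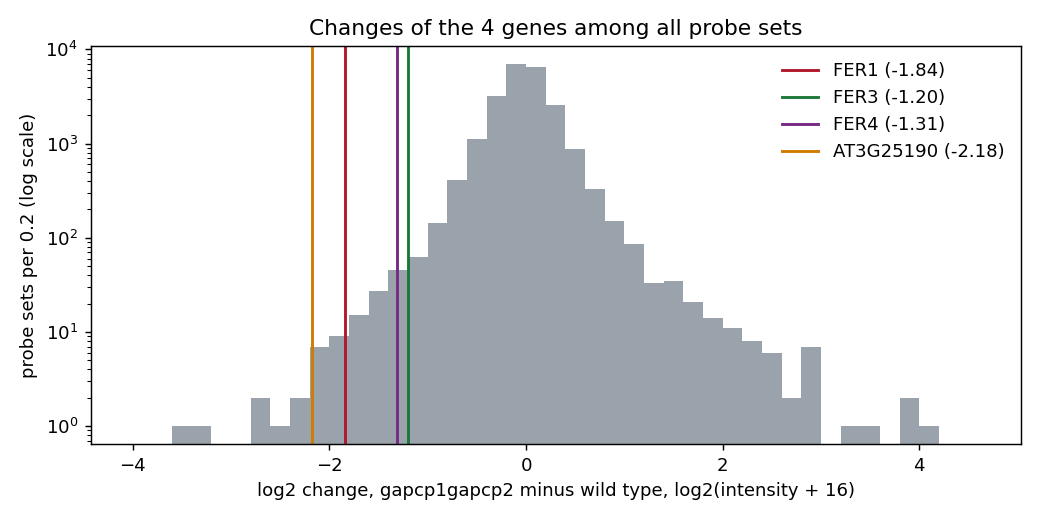
Histogram of the log2 change (gapcp1gapcp2 minus wild type, on log2(intensity + 16)) of all 22746 probe sets, in bins of 0.2 with a log-scaled count axis. The vertical lines mark AT3G25190 at -2.18, FER1 at -1.84, FER4 at -1.31 and FER3 at -1.20, all in the lower tail of a distribution whose median is -0.015.

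The intensities of the 4 genes were not lowered in the same proportion. Comparing 2 genes on the same array removes whatever scales that whole array, so the log2 difference between neighbours in the order of change was taken array by array. Its level depends on the probes and is not compared between genes, but its shift between genotypes shows an unequal change in intensity. The pairs follow the order of these same changes, so the sign of each difference was set beforehand. No share of other pairs of probe sets is given here. Whether unequal responses of the probes have a part in the shift was not tested. FER1 minus FER4 was 2.09 to 2.20 on the wild-type arrays and 1.52 to 1.71 on the mutant arrays. These ranges did not overlap, and the log2 change of FER1 minus that of FER4 was -0.53. FER4 minus FER3 was -0.91 to -0.76 in wild type and -1.14 to -0.87 in the mutant, and these ranges overlapped. The order of FER4 and FER3 was therefore not resolved beyond the spread of the arrays (a difference of -0.12 in log2 change).

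AT3G25190 minus FER1 was -1.83 to -1.67 on the wild-type arrays and -2.29 to -1.94 on the mutant arrays. The ranges were apart, with a difference in log2 change of -0.34. With 64 added before the log they overlapped (-1.78 to -1.62 in wild type, -2.04 to -1.71 in the mutant), and the difference was -0.16. With 16 added, AT3G25190 and FER1 had larger changes on these arrays than FER4 and FER3. FER1 minus FER3 was 1.24 to 1.33 in wild type and 0.47 to 0.81 in the mutant. FER3 minus AT3G25190 was 0.38 to 0.56 and 1.43 to 1.48, and FER4 minus AT3G25190 -0.53 to -0.26 and 0.33 to 0.57. None of these ranges overlapped between genotypes, but the signs were again set by the order of the changes. These ranges were not taken with 1 or 64 added. AT3G25190 and FER1 were apart from each other with 16 or 1 added (a difference of -0.41 with 1) and overlapped with 64. FER4 and FER3 overlapped with 1, 16 or 64 added.

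**Figure D3:**
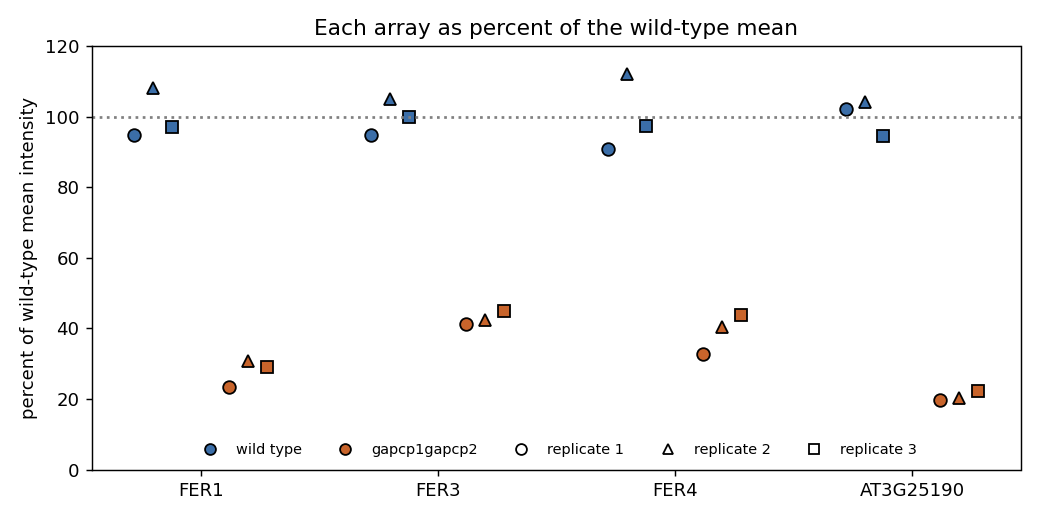
Each array of the 4 genes as percent of that gene's wild-type mean intensity, in wild type (blue) and gapcp1gapcp2 (orange), with a marker shape for each replicate number. The mutant arrays lie at 23.4 to 30.7% for FER1, 41.3 to 45.0% for FER3, 32.8 to 43.9% for FER4 and 19.7 to 22.3% for AT3G25190.

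Within a genotype, the 4 genes shared the highest wild-type array and the lowest mutant array by intensity, but not the opposite extremes. The lowest wild-type array was replicate 1 for the ferritin genes and replicate 3 for AT3G25190 (851). The highest mutant array was replicate 2 for FER1 (954) and replicate 3 for the other genes. Wild type replicate 2 was the highest wild-type array for all 4 genes, and gapcp1gapcp2 replicate 1 was the lowest mutant array for all 4. Of all probe sets, 35.7% were highest on wild type replicate 2, 51.9% were lowest on gapcp1gapcp2 replicate 1, and 20.6% met both conditions. The median intensity was 111 on gapcp1gapcp2 replicate 1 against 117 on each other mutant array, and 116 on wild type replicate 2 against 114 and 113 on the other wild-type arrays. Divided by the array median, FER1 (6.57) and FER4 (2.05) were still lowest on gapcp1gapcp2 replicate 1 among the mutant arrays. FER3 and AT3G25190 were then lowest on gapcp1gapcp2 replicate 2, slightly below replicate 1. FER3 was at 4.71 on replicate 1, and AT3G25190 at 1.57 on replicate 2. Wild type replicate 2 was still the highest wild-type array for all 4 genes. The part of these gaps in the order of the arrays over all probe sets was not tested.

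The spread among replicates also differed between the genes. For FER3 and AT3G25190 the SD of the log2 values was close to what probe sets of like brightness showed. Brightness was the mean log2 value over all 6 arrays, and in the mutant each gene lay below its own mean. The SD was 0.074 in wild type and 0.062 in the mutant for FER3. The median over its brightness decile of probe sets was 0.072 and 0.075. It was 0.069 and 0.086 for AT3G25190, against medians of 0.080 and 0.084. FER1 and FER4 varied more. The SD of FER1 was 0.100 in wild type and 0.204 in the mutant, against medians of 0.072 and 0.075. The SD of FER4 was 0.150 and 0.205, against 0.080 and 0.084.

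These deviations of FER1 and FER4 went together in wild type and, in the mutant, mainly through the low replicate 1. Mutant replicates 2 and 3 were in opposite order, with 954 and 906 for FER1 and 280 and 305 for FER4. The log2 difference between them had an SD of 0.05 over the wild-type arrays and 0.09 over the mutant arrays, less than the SD of either gene alone in the same genotype. For FER1 minus FER3 the SD was 0.04 in wild type and 0.17 in the mutant, and for FER3 minus FER4 it was 0.08 and 0.15. With 3 arrays per genotype these are descriptions of single arrays, and no SD for pairs of other probe sets is given beside them.

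The other iron genes came from lists by role, whose members could be named only if they were in the authors' deposited table. Of 61 genes in 4 iron lists, 18 could be named, with 13 higher and 5 lower in gapcp1gapcp2. All 18 passed the limma test, which 11.0% of all probe sets did (5.86% with a higher level in the mutant), and this too follows from the filter of that table. The 5 lower genes were the 4 storage genes and NAS3. Of the 12 genes in the list of iron storage and vacuolar transport, the 8 that could not be named were FER2, VIT1, NRAMP3, NRAMP4 and the transporter-like loci AT1G21140, AT1G76800, AT3G43630 and AT3G43660, and their levels are unknown here.

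In the uptake list, 3 of 13 genes could be named, and all 3 were higher in the mutant, opposite to the storage genes. IRT1, the main root iron transporter, gave 25.4, 23.3 and 21.3 in the wild-type replicates and 486, 681 and 684 in the mutant replicates. As for the storage genes, gapcp1gapcp2 replicate 1 was the lowest mutant array by intensity for IRT1. The same held for 10 of the 14 named iron genes other than the storage genes. AT3G12900 was not among these 10, with 185 on that array against 183 and 167 on the other mutant arrays. The 10 genes were 71.4% of the 14, against 63.7% of the 256 probe sets of 1 locus and 51.9% of all probe sets. Wild type replicate 2 was the highest wild-type array for 5 of the 14 genes (35.7%, the same share as of all probe sets). CYP82C4, a cytochrome P450 gene of the iron deficiency response, went from 7.21 ± 0.766 to 317 ± 59.0, and the oxygenase gene AT3G12900 from 10.2 ± 14.0 to 178 ± 9.47 (SD, n = 3 each). Their wild-type intensities were close to 0, so their log2 changes depend on the added constant far more than those of the storage genes.

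In the list of iron regulators, 5 of 20 genes could be named, all of them higher. PYE, a bHLH factor of the iron deficiency response that is known in Arabidopsis to repress ferritin genes, went from 104 ± 9.09 to 236 ± 8.14 (log2 change 1.08 ± 0.08 SE). BTS, a ubiquitin ligase that acts against the response, went from 312 ± 27.3 to 855 ± 41.1 (log2 change 1.41 ± 0.09 SE). bHLH39 and BHLH101, bHLH factors of the same response, had log2 changes of 2.64 ± 0.11 and 3.55 ± 0.24, and AT1G47400 had 4.18 ± 0.11 (SE). The log2 changes of bHLH39, BHLH101 and AT1G47400 were 1.99, 2.22 and 3.55 with 64 added and 2.97, 4.99 and 4.47 with 1.

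In the distribution list, 6 of 16 genes could be named, with 5 higher and 1 lower. OPT3, a phloem transporter that takes part in signalling iron status from shoot to root, went from 281 ± 32.7 to 848 ± 129, and FRO3, a mitochondrial ferric reductase gene, from 288 ± 13.8 to 905 ± 82.4 (SD, n = 3 each). ZIF1, a vacuolar transporter gene tied to nicotianamine, had a log2 change of 1.44 ± 0.07 (SE). The nicotianamine synthase genes, whose product binds iron for transport, were split. NAS2 and NAS4 had log2 changes of 2.11 ± 0.10 and 1.74 ± 0.10 (SE). NAS3 went the way of the ferritin genes, from 188 ± 10.7 to 57.3 ± 11.8 (log2 change -1.49 ± 0.13 SE, and -1.06 with 64 added).

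**Figure D4:**
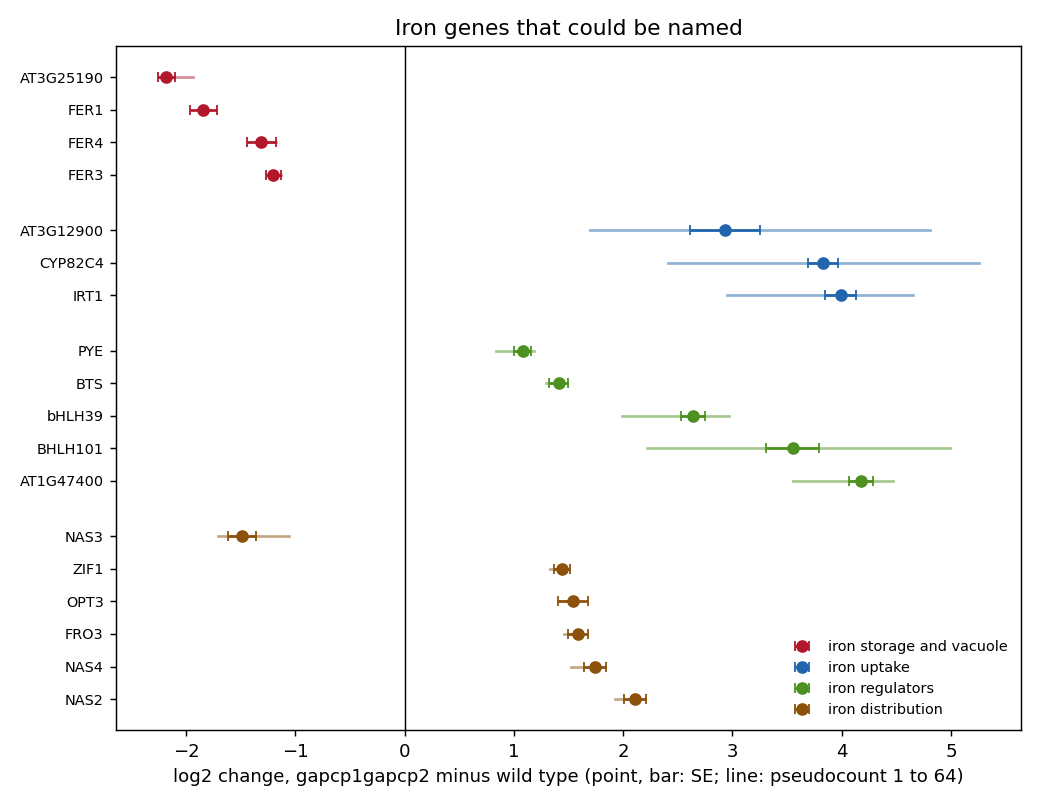
Log2 change (gapcp1gapcp2 minus wild type) of the 18 iron genes that could be named, coloured by list. Points and bars are the estimate and its SE with 16 added before the log, and the pale lines run between the values with 1 and with 64 added. The 4 storage genes and NAS3 lie left of 0 and the other 13 right of it, and the lines of IRT1, CYP82C4, AT3G12900 and BHLH101 are long while those of the storage genes are shorter.

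Lists from outside iron biology were set beside the storage genes as well. Of 15 genes in the phosphate starvation list, 9 could be named, and all 9 were higher in the mutant and passed the limma test, as did 5.86% of all probe sets. Naming again required the filter of the authors' deposited table on this contrast, and of its 256 probe sets of 1 locus 157 were higher and 99 lower. Whether phosphate signalling has a part in the level of FER1 was not tested. PS2 had a log2 change of 2.65 ± 0.07 and MGDC of 2.28 ± 0.06 (SE), and that of MGDC was 1.66 with 64 added. Of 10 genes for superoxide dismutases and their copper chaperone, catalases and ascorbate peroxidase, 0 could be named. The enzymes among them deal with reactive oxygen species, as ferritins help to do.

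Of 16 markers of root cells, 2 could be named, the endodermal gene CASP1 and the water channel gene TIP2;3, and both were lower (log2 changes -1.50 ± 0.08 and -1.57 ± 0.08 SE). A lower level that passed the limma test was found for 5.13% of all probe sets, and these 2 markers could be named because they had passed the authors' filter on this contrast. Their summed intensity was 1073 to 1123 in wild type and 338 to 392 in gapcp1gapcp2. The other 14 root markers and all 7 shoot markers could not be named, so the tissue makeup could not be read from both sides. The part of this difference in the levels of the storage genes was not tested, and in RNA of whole seedlings fewer cells of a type and less RNA per cell cannot be told apart.

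The named genes most like each storage gene were sought among the other 255 probe sets of 1 locus in the authors' deposited table. Likeness was the root mean square distance over the 6 arrays, after each gene's wild-type mean log2 value was subtracted. Closest to FER1 were AGP13 (0.114), AT1G12080 (0.117) and AGP22 (0.135), of which AGP13 and AGP22 encode arabinogalactan proteins of the cell surface. Closest to AT3G25190 were MLP329 (0.083), a major latex protein gene, AT2G37750 (0.105) and MEE3 (0.138), which the authors' deposited table describes as a myb family factor.

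Closest to FER4 were UCC2 (0.068), a uclacyanin gene, AT1G49310 (0.094) and AT4G30670 (0.095). Closest to FER3 were AT4G30670 (0.063), AT1G52200 (0.064) and AT2G44380 (0.072). FER3 was the 8th most like FER4 (0.129), and FER1 the 12th most like AT3G25190 (0.264), so no storage gene was among the 3 most like another. The distance mostly measures a like size of change, since the genotypes differ far more than the arrays within them.

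Some facts bear on the whole series. The median intensity per array was 111 to 117, and 1.72 to 2.20% of values lay below 0. The storage genes lay above the array median on every array, from 25.8 to 29.0 times the array median for FER1 in wild type down to 1.57 to 1.71 times for AT3G25190 in the mutant. The limma test called 2501 of 22746 probe sets (1334 higher, 1167 lower), and this count fell to 1422 without wild type replicate 2, 1190 without gapcp1gapcp2 replicate 2 and 1197 without gapcp1gapcp2 replicate 3. No probe set of GAPCP1 or GAPCP2 could be named, so the genotype labels were not checked against the targeted transcripts.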

How the data were processed

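RNA of whole seedlings was measured on 6 one-colour Affymetrix arrays, 3 per genotype, grouped by the sample titles. The samples' description fields name embryo stages that no other label shares and were not used. The authors deposited intensity values per probe set on a linear scale, and GCOS is the only tool in the submitters' processing notes (scaling not given in the sources used here). The authors' deposited table of 274 probe sets gives mean intensity, a signed fold change score, bounds and a p-value, filtered per the file headers on fold, difference and p. It numbers arrays up to 12, so the arrays behind it are not certain to be these 6. It alone ties probe sets to loci here, and 18 of its 274 probe sets, shared between transcripts, were not named. RefSeq (TAIR10.1) names matched 273 loci.

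After a floor at 0, 16 was added to each intensity and log2 was taken; arrays were not normalised again. limma 3.58.1 (R 4.3.3) was fitted to the 6 arrays with genotype as the only term, p-values were adjusted by Benjamini-Hochberg (22746 probe sets), and the fit was tested on simulated data. Alternatives were quantile normalisation, median centring, other pseudocounts, a replicate block, array weights, a filter on dim probe sets, other moderation, a 2-fold minimum and leaving out each array. Python 3.11.15 with numpy 2.4.6 and pandas 2.3.3 did the rest. The number of arrays limits the precision. The 4 genes, the lists and the alternatives were chosen with earlier results of these data known. Named are the 4 genes, the 3 most like each, every iron list member in the table and up to 2 members of each other list. No sequences were used here.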

Additional observations from a re-analysis of the deposited data

How the results depend on the processing

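Over 12 alternatives each, the log2 changes of the 4 storage genes stayed below 0, between -1.92 and -1.72 for FER1, -1.23 and -1.13 for FER3, -1.40 and -1.18 for FER4, and -2.26 and -1.94 for AT3G25190. These genes came from a table filtered on this contrast, so this is no sign of stability. Leaving out each array in turn gave -1.92 to -1.72 for FER1, -1.23 to -1.16 for FER3, -1.40 to -1.20 for FER4 and -2.22 to -2.14 for AT3G25190. A pseudocount of 1 (-2.26) or 64 (-1.94) moved AT3G25190 by more than the SD of its replicates, and no alternative did so for FER1, FER3 or FER4. The differences in change between neighbouring genes were added after the data were seen, with their sign set by the order of the changes. They kept this sign in all 12 alternatives. The difference of AT3G25190 minus FER1 moved from -0.34 to -0.16 at a pseudocount of 64. The count of probe sets called was 390 with a 2-fold minimum, by construction, and 3779 with array weights, where the cause was not tested. It was 1190 to 2347 when each array was left out in turn. The replicate block gave 1687 calls against 2501 without it. Deviations of same-numbered arrays correlated at 0.234, 0.0186 and 0.0174, which is too low in numbers 2 and 3 for a pairing by number. Across numbers, wild type replicate 3 and mutant replicate 2 correlated at 0.169, and wild type replicate 2 and mutant replicate 3 at 0.136. The other pairs across numbers were at -0.165 to -0.124. A pairing under other numbers was not tested. With the block the log2 changes of the 4 genes were the same by construction.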
